A study of Mus musculus with 116 samples.

Results

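The GATA, TAL and HAND lineage factors were 10 transcription factor genes of mesoderm, blood and heart development: Gata2, Gata3, Gata4, Gata5, Gata6, Tal1, Tal2, Lmo2, Hand1 and Hand2. They were 10 of the 53379 genes counted. The members were chosen by name from a class of genes whose raised levels in green cKO-Eed-MADM cells were already known from these data, so their levels in the contrasts of those cells are given as a description without a p-value. The study asked what the loss of Eed, a core subunit of the histone methyltransferase complex PRC2, does to gene expression in cortical projection neuron lineages of the mouse, when it is lost in sparse cells of a mosaic cortex or in the whole cortex. MADM (mosaic analysis with double markers) makes GFP-positive green, tdTomato-positive red and double-positive yellow cells through Cre-dependent exchange between the chromosome 7 homologues, with Emx1-Cre, active in dorsal forebrain progenitors, driving labelling and deletion. Cells were sorted by colour from pools of cortices at 3 embryonic ages (E12.5, E13.5 or E16.5) or at birth (P0) and profiled by RNA-seq.

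All cells carried the chromosome 7 MADM cassettes and Emx1-Cre, and the samples were labelled as strain CD1, while the study's methods give a mixed background of C57BL/6 and CD1. In control-MADM all colours were Eed+/+. In Eed-MADM the cortex was otherwise heterozygous, and Eed was deleted (Eed-/-) in green cells, intact (Eed+/+) in red cells and heterozygous (Eed+/-) where both markers were present. In cKO-Eed-MADM all colours were Eed-/- because the remaining cells of the lineage carried the deletion as well. Green cells held 2 paternal and red cells 2 maternal copies of chromosome 7, which carries none of the members. Of 116 libraries, 92 had at least 1000000 uniquely aligned reads that made up at least 60% of all reads, and these are used throughout. They comprised 55 green, 17 red and 20 yellow libraries, of which control-MADM gave 28, Eed-MADM 38 and cKO-Eed-MADM 26. P0 gave 29 libraries, E12.5 gave 27, and the ages between gave 18 each. Green cKO-Eed-MADM had 4 libraries at every age. Green control-MADM had 5 libraries at E12.5, 2 at the next age, 3 at E16.5 and 5 at birth, and green Eed-MADM had 8, 2, 5 and 9 in the same order. Libraries held 865832 to 7249098 reads on genes, so that 1 read was worth 0.146 to 1.05 CPM (counts per 1000000 counts on genes). Levels are CPM on 1 TMM scale over the 92 libraries. The labels number the pools of a group without saying which came from the same litter, so p-values measure the spread between these pools only.

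GATA factors bind DNA through zinc fingers. GATA1, GATA2 and GATA3 act in blood cell lineages, GATA2 and GATA3 also in spinal and midbrain inhibitory neurons and in sympathetic neurons, and GATA4, GATA5 and GATA6 in heart and endoderm. TAL1, a basic helix-loop-helix factor, pairs with E proteins and is joined to GATA factors through the LIM-only adaptor LMO2 and its partner LDB1 in blood and vessel progenitors. HAND1 and HAND2 are basic helix-loop-helix factors of the heart, limb and neural crest. Promoters of such lineage factors are commonly rich in CG dinucleotides and are known PRC2 targets in cells that do not use them.

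To show what these starts look like, RefSeq windows on GRCm38.p6 from 250 bases before to 50 bases after the start are printed 5′ to 3′ on the gene's strand, with CG dinucleotides in capitals, for 3 members that were high in green cKO-Eed-MADM at P0 (Tal1, Gata2 and Hand2) and 2 that were not (Gata5 and Tal2). Tal1 is chr4:115056176-115056475, plus strand. Gata2 is chr6:88193641-88193940, plus strand. Hand2 is chr8:57320733-57321032, plus strand. Gata5 is chr2:180334630-180334929, minus strand. Tal2 is chr4:53779451-53779750, plus strand.
Tal1: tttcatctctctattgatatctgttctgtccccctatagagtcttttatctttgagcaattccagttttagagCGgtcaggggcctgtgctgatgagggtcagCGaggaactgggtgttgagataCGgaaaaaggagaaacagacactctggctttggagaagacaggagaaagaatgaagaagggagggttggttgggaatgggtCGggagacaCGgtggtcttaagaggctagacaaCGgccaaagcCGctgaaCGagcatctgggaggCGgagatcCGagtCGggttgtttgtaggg
Gata2: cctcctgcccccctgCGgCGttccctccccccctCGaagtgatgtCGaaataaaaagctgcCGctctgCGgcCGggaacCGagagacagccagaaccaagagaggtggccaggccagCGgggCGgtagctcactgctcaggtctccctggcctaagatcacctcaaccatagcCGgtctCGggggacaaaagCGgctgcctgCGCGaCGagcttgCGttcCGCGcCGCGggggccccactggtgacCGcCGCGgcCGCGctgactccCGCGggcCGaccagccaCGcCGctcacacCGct
Hand2: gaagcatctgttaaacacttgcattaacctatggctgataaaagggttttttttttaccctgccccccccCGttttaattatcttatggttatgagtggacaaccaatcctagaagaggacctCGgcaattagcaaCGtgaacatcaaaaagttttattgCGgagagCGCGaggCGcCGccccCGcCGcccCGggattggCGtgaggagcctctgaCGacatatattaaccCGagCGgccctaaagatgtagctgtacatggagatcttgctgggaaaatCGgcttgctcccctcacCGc
Gata5: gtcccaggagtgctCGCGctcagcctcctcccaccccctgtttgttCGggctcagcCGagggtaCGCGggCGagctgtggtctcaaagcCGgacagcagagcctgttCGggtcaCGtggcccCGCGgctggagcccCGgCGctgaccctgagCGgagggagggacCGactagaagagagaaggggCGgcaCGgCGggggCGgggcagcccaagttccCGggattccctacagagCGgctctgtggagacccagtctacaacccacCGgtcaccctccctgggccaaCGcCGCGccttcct
Tal2: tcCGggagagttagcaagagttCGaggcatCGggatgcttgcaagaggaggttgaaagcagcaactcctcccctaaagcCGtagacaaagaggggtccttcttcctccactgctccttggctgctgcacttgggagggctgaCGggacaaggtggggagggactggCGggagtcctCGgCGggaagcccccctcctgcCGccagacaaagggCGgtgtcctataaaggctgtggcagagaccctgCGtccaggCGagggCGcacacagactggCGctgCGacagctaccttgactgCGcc

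RefSeq held 8 such windows for 6 members. The windows held 11 (Tal1, upstream start) to 32 (Gata2, upstream start) CG dinucleotides, against a median of 7 over all 32851 windows of the same length. The Gata5 window held 26 and the Tal2 window 16, within the range of the members that were high. The Hand2 window held 17, the Gata3 window 22, the second Gata2 window 29 and the second Tal1 window 22. The GATA-type motif AGATAA, searched on both strands, was found in the upstream Tal1 window and in the Hand2 window and in 11.2% of all windows. The E-box CANNTG, whose reverse complement is the same pattern, was found in 6 of the 8 windows and in 72.3% of all windows. The counts of the windows of high members and of the others overlapped.

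In the annotation (GRCm38, GENCODE M21) the members lay as follows. Tal1 (ENSMUSG00000028717.12) is chr4:115056426-115071755 and Lmo2 (ENSMUSG00000032698.15) is chr2:103957986-103981878. Gata2 (ENSMUSG00000015053.14) is chr6:88193891-88207032 and Gata3 (ENSMUSG00000015619.10) is chr2:9857078-9890034. Gata4 (ENSMUSG00000021944.15) is chr14:63198922-63271692 and Gata6 (ENSMUSG00000005836.8) is chr18:11052064-11085635. Hand1 (ENSMUSG00000037335.13) is chr11:57828705-57832818 and Hand2 (ENSMUSG00000038193.4) is chr8:57320983-57324633. Gata5 (ENSMUSG00000015627.5) is chr2:180325133-180334699 and Tal2 (ENSMUSG00000028417.3) is chr4:53779705-53788712. Counts cover the exons of each gene. The libraries carried no strand information, since 48.7 to 51.4% of stranded reads fell on the first strand. Hand2 and its antisense neighbour Hand2os1 share 461 exonic bases. Reads there fall in several genes and are counted for neither. Levels per kilobase below divide by all exonic bases of Hand2, which can understate it. Hand2os1 was itself 4.00 ± 2.78 CPM (SD, n = 4) in green cKO-Eed-MADM at P0 and had no read in green control-MADM.

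Eed, the targeted gene, was lower in its mutant groups, as the genotypes state. In green libraries at P0 it was 29.4 ± 3.14 CPM (SD, n = 5) in control-MADM, 15.5 ± 3.12 (n = 9) in Eed-MADM and 11.6 ± 3.46 (n = 4) in cKO-Eed-MADM. At E16.5 it was 41.1 ± 9.95 CPM (n = 3) in control-MADM, 17.8 ± 4.34 (n = 5) in Eed-MADM and 18.8 ± 5.88 (n = 4) in cKO-Eed-MADM. The library labelled cKO-Eed-MADM red replicate 1 at P0 went against its label, with 33.3 CPM of Eed, near the 25.4 to 30.9 CPM of the 2 red control-MADM libraries. That library had reads on 13133 genes, the fewest of the 92, and red blood cell and meningeal gene sums of 2424 and 1300 CPM. Results that rest on it are given with and without it.

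Tal1 was the member with the highest mean level per kilobase of exon in green cKO-Eed-MADM at E16.5 and P0. In green cKO-Eed-MADM at E16.5 its level was 159, 179, 141 and 194 CPM. In the 3 green control-MADM libraries of that age it had no read. The groups did not overlap, and the mean of 168 CPM was at least 843-fold higher than the level that 3 reads over the control libraries would give. Here and below, a fold against a group without a read is a lower bound from that floor, intervals and floors cover counting error only, and in sorted pools fewer cells that express a gene cannot be told apart from less RNA per cell. At P0 Tal1 was 93.9, 110, 80.1 and 69.0 CPM in green cKO-Eed-MADM and between 0 and 0.206 CPM in the 5 green control-MADM libraries, which held 3 reads in all. The fold of summed reads was 813, with an exact 95% counting interval of 278 to 3950.

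Lmo2, the adaptor that joins TAL1 to GATA factors, differed from the other members in that every green control-MADM library of E16.5 and P0 held it. Green control-MADM libraries held 2.48 to 5.99 CPM at E16.5 and 6.96 to 22.2 CPM at P0. Green cKO-Eed-MADM libraries held 30.7, 55.7, 27.3 and 58.2 CPM at E16.5 and 42.1, 59.1, 30.5 and 27.3 CPM at P0. The lowest cKO-Eed-MADM library stood above the highest control at both ages, by 10.2-fold in the means at E16.5 (log2 difference 3.34, SE 0.43) and 3.16-fold at P0 (log2 difference 1.66, SE 0.35).

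Gata2 was 11.7, 20.5, 8.37 and 22.1 CPM in green cKO-Eed-MADM at E16.5, against 0, 1.38 and 0 CPM in control-MADM. At P0 it was 22.0, 21.4, 36.5 and 22.3 CPM against at most 0.206 CPM, which was 1 read over 5 control libraries. Gata3, the other blood and inhibitory neuron factor, was uneven at E16.5, with no read in 1 of the 4 green cKO-Eed-MADM libraries and 14.5, 6.04 and 4.23 CPM in the others. At P0 all 4 held it, at 17.1 to 32.4 CPM, and the green control-MADM libraries of both ages held no read of Gata3.

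The heart and endoderm factors had no read in green control-MADM at E16.5 or P0. Gata4 was 8.15, 29.5, 16.2 and 13.9 CPM in green cKO-Eed-MADM at E16.5 and 27.4, 24.6, 31.0 and 38.4 CPM at P0, with no read in any green control-MADM library at any age. The means were at least 84.9-fold and at least 289.5-fold higher than the control floor at E16.5 and P0. Gata6 was 4.83 to 8.76 CPM at E16.5 and 28.5, 11.1, 16.9 and 27.3 CPM at P0, with no read in green control-MADM at either age, at least 33.4-fold and at least 199.7-fold higher. Hand2 was 0, 7.68, 2.53 and 0.403 CPM at E16.5 and 11.2, 7.61, 10.3 and 25.4 CPM at P0, again with no control read.

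The other 3 members stayed at or near the floor. Hand1 had no read in any E16.5 or P0 library but 1, a red control-MADM library with 1 read. Gata5 had 1 read over the same ages, in green cKO-Eed-MADM at E16.5. Tal2 had no read in green cKO-Eed-MADM at E16.5 and at most 1.08 CPM at P0, where green control-MADM reached 0.663 CPM. Over all 92 libraries Hand1 had a read in 7, with 13.8 CPM at most, and Gata5 in 5.

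**Figure D1:**
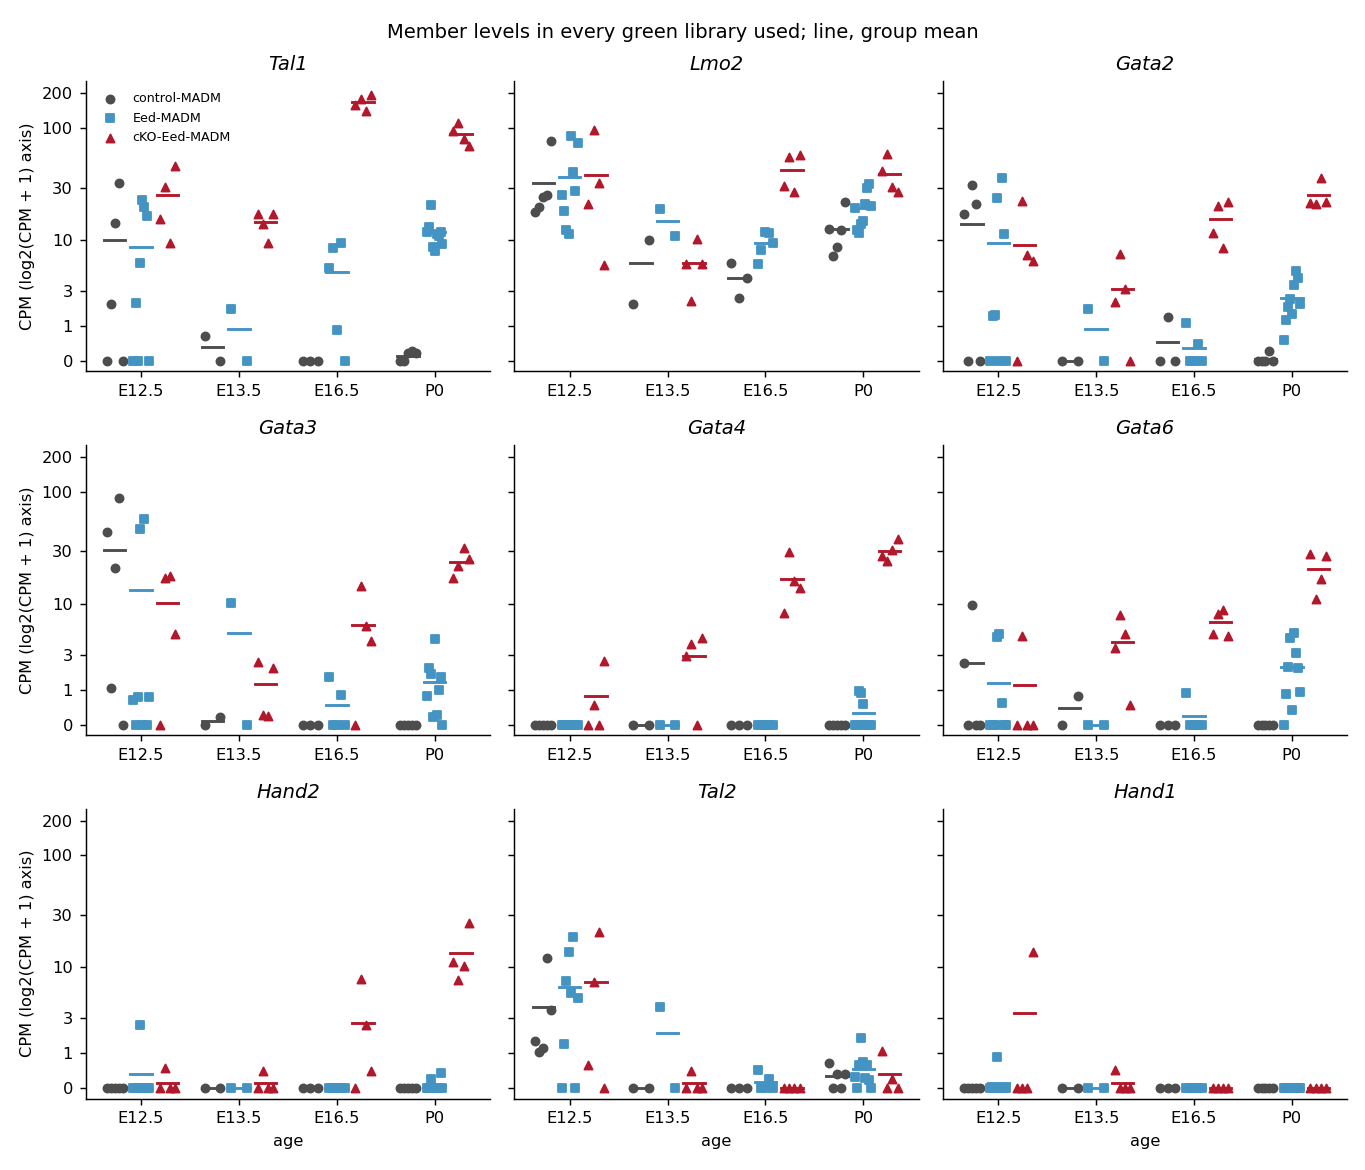
CPM of 9 members in each green library, on an axis of log2(CPM + 1), by age and group, with a line at the group mean. At E16.5 and P0 the cKO-Eed-MADM libraries of Tal1 (69.0 to 194 CPM), Lmo2, Gata2, Gata4 and Gata6 lie above all control-MADM libraries, while at E12.5 the groups overlap.

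In the edgeR fit over all genes, 6 members were tested for green cKO-Eed-MADM against control-MADM at E16.5 and all 6 were called higher, in a contrast that called 8.58% of 13359 genes. At P0 7 were tested and 7 called higher, where 24.2% of 14161 genes were called. Against green Eed-MADM, 5 of 6 were called higher at E16.5 (Gata3 was not) and 7 of 7 at P0, with 7.04% and 19.5% of genes called. The members were chosen on this pattern, and the filter on low counts passed several of them only through the cKO-Eed-MADM libraries, so nothing is read from these counts. Tal2, Hand1 and Gata5 did not pass the filter at E16.5 or P0, and Hand2 passed at P0 only.

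Per kilobase of exon, which allows genes to be compared, Tal1 was the highest member in green cKO-Eed-MADM at E16.5, at 38.4 ± 5.28 CPM per kb (SD, n = 4). Lmo2 followed at 19.8 ± 7.49 CPM per kb and Gata4 at 4.34 ± 2.32 CPM per kb, each step without overlap of the libraries. Gata4, Gata2, Gata3, Hand2 and Gata6 overlapped their neighbours in the order, which ended at 1.02 ± 0.31 CPM per kb for Gata6. At P0 Tal1 (20.1 ± 4.01 CPM per kb) and Lmo2 (18.4 ± 6.64 CPM per kb) overlapped, and both lay above Gata4 at 7.78 ± 1.53 CPM per kb. Gata3, Hand2, Gata2 and Gata6 then followed from 6.10 down to 3.22 CPM per kb with overlap at each step.

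**Figure D2:**
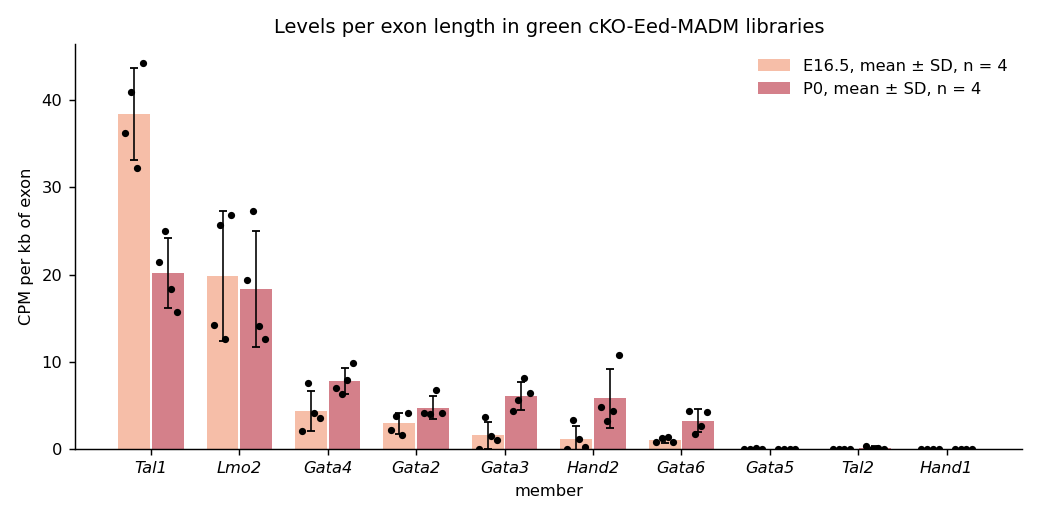
Level per kilobase of exon (CPM per kb) of each member in the 4 green cKO-Eed-MADM libraries at E16.5 and the 4 at P0. Bars are means, error bars SD and points libraries. Tal1 was 38.4 CPM per kb at E16.5 and 20.1 at P0, while Gata5, Tal2 and Hand1 lie at or near 0.

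The levels of mutant cells at E16.5 and P0 come from the libraries the members were chosen on and are set side by side as a description. Tal1 was lower at P0 in 4 of 4 libraries, with means of 88.1 against 168 CPM, and Gata3 and Gata6 were higher in 4 of 4, with means of 24.3 against 6.20 CPM and 20.95 against 6.66 CPM. The contrast called 17.7% of 13926 genes and none of the 6 members in it, and nothing is read from that count. For Tal1 the log2 difference was -0.91 (95% interval -1.85 to 0.02), and for Gata6 it was 1.66 (-0.06 to 3.38). For Lmo2 it was -0.09 with an interval of -0.91 to 0.72.

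Red and yellow cells gave a measurement in libraries that had not entered the earlier green results, since all colours of cKO-Eed-MADM are Eed-/- and all colours of control-MADM Eed+/+. The labels do not say whether colours were sorted from the same pools. At E16.5, 2 red cKO-Eed-MADM libraries were compared with 2 red and 1 yellow control-MADM libraries. Tal1 was 126 and 150 CPM in cKO-Eed-MADM and had no read in the 3 controls, at least 545-fold higher (higher in 2 of 2 libraries). Gata4 was 11.7 and 20.2 CPM against no read, at least 63.1-fold higher. Gata2 was 8.58 and 13.8 CPM against no read, at least 44.2-fold higher.

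Gata6 was 5.85 and 5.55 CPM in those red cKO-Eed-MADM libraries against 2 reads over the controls. The fold of summed reads was 33.8 with a counting interval of 8.95 to 285. Lmo2 was 30.6 and 25.4 CPM against 2.74 to 6.43 CPM, a log2 difference of 2.33 (SE 0.47, edgeR adjusted p = 0.00655). The 5 members that passed the filter on low counts were called higher, where the contrast called 7.69% of 13121 genes. Tal1, Gata2, Gata4 and Gata6, with 0 to 2 control reads, passed it only through the red cKO-Eed-MADM libraries. Nothing is therefore read from this count, and no edgeR p-value is given for those members. The untested Gata3 was 1.56 and 3.22 CPM and Hand2 0.975 and 2.68 CPM, with no control read for either. Without red cKO-Eed-MADM replicate 2 only 3 members passed the filter on low counts, and those 3 were called. With DESeq2 Gata4 was not called (adjusted p = 0.411).

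At P0 the red and yellow cKO-Eed-MADM libraries were 2 red and 1 yellow, against 2 red and 2 yellow of control-MADM. Tal1 was 32.5 and 107 CPM in red and 121 CPM in yellow cKO-Eed-MADM, and 0.445, 0.680, 0 and 0 CPM in the controls. It was the only member called of 5 tested (log2 difference 8.29, SE 1.20), in a contrast that called 0.149% of 14115 genes. With at most 3 reads in a control-MADM library, Tal1 passed the filter on low counts only through the cKO-Eed-MADM libraries. Nothing is therefore read from this call, and no edgeR p-value is given for it. The lowest Tal1 value, 32.5 CPM, came from the library that went against its label, which held no read of Gata2, Gata4 or Gata6 and 0.225 CPM of Gata3. In the other red and the yellow library Gata2 was 47.5 and 27.9 CPM, Gata3 23.9 and 18.0 CPM, and Gata4 22.9 and 20.9 CPM. Without the doubtful library Tal1 remained called, and 6 members were tested. The Tal1 call was lost when any of 5 other libraries was left out.

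**Figure D3:**
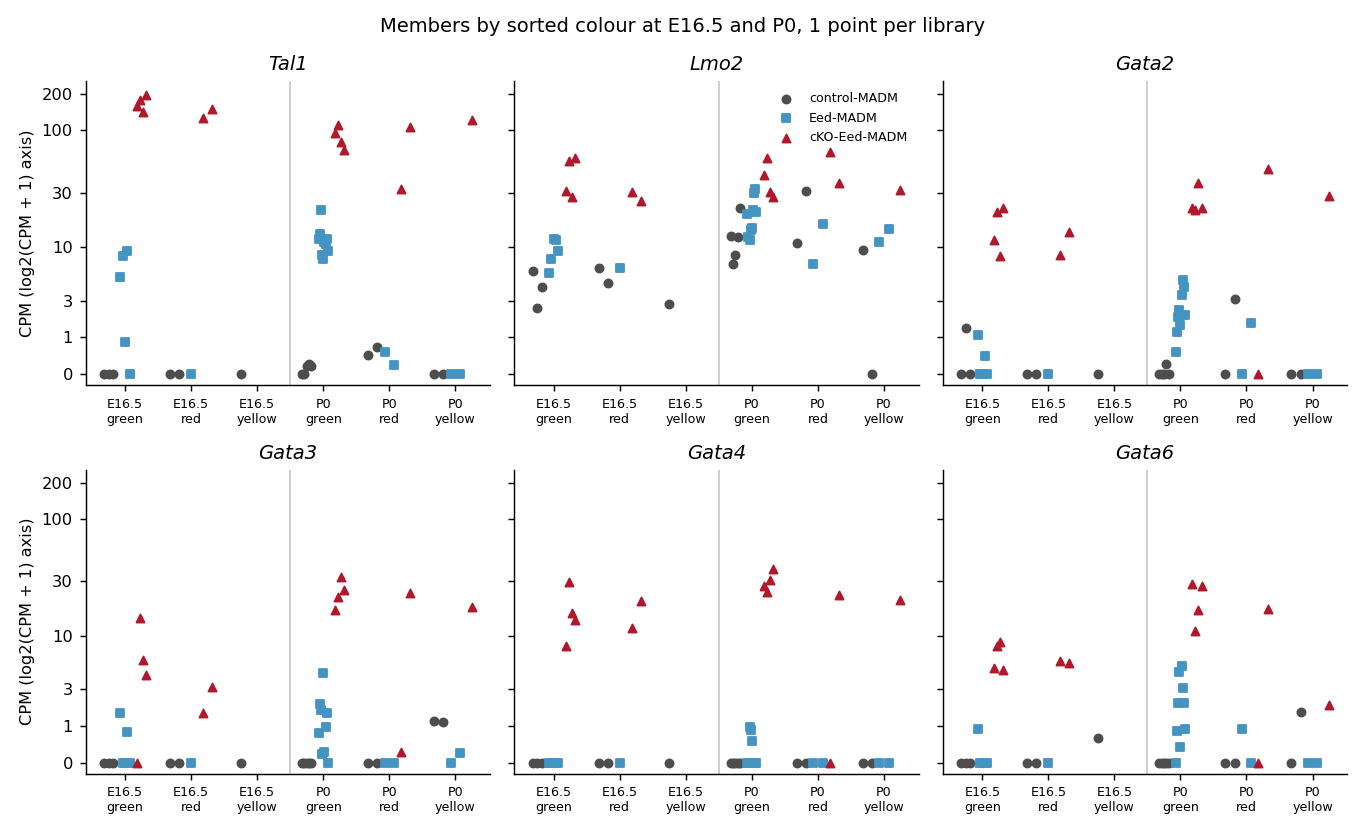
CPM of 6 members in each library at E16.5 and P0 by sorted colour, on an axis of log2(CPM + 1). Green, red and yellow cKO-Eed-MADM libraries stand together for Tal1 (32.5 to 194 CPM), and the only Eed-MADM cells with more than 1 CPM of Tal1 are green.

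In Eed-MADM the homozygous deletion is confined to sparse green cells, in a cortex that is otherwise heterozygous. At P0 Tal1 was present in all 9 green Eed-MADM libraries, at 7.75 to 21.1 CPM with a median of 11.25 CPM, against at most 0.206 CPM in green control-MADM. The difference was 6.50 on the log2 scale (SE 0.45, edgeR adjusted p = 1.03e-09), and the fold of summed reads was 112 with a counting interval of 38.1 to 544. The groups did not overlap. Gata2 was 0.506 to 4.89 CPM with a median of 2.08 CPM and did not overlap the controls either (log2 difference 5.38, SE 0.76). Gata2 passed the filter on low counts only through the cKO-Eed-MADM libraries of the fit, so no p-value is given for it. This contrast shares its control libraries with the contrast of cKO-Eed-MADM.

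Gata6 was 0 to 5.19 CPM with a median of 2.09 CPM in green Eed-MADM at P0, against no control read (at least 20.3-fold higher, with a read in 8 of 9 libraries). Gata3 was 0 to 4.48 CPM with a median of 0.977 CPM (at least 12.65-fold higher, with a read in 8 of 9). Gata4 (13 reads over 9 libraries), Hand2 (3 reads) and Lmo2 (log2 difference 0.62, SE 0.30, edgeR adjusted p = 0.289) were not called. In all, 4 of 7 members in the fit were called, all higher, where 1.75% of genes were called. The fit included the cKO-Eed-MADM libraries. In a fit of green Eed-MADM and control-MADM alone only Tal1 and Lmo2 passed the filter on low counts, and Tal1 was called. Gata2, Gata3, Gata4, Gata6 and Hand2 thus passed only through the cKO-Eed-MADM libraries. Nothing is therefore read from the count of calls, and no edgeR p-value is given for those members in this contrast. At E16.5 none of 6 was called, where 0.255% of genes were. Tal1 was 5.30, 8.38, 0.830, 9.30 and 0 CPM against no control read (edgeR adjusted p = 0.181). DESeq2 called Tal1 there, as did the edgeR fit without Eed-MADM replicate 5, the library with no read. Nothing is read from those calls, since the share of all genes called with them is not given. In the main fit 1406 of 13359 genes had an unadjusted p under 0.05.

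Within the mosaic, green Eed-/- cells were also set against red Eed+/+ cells of Eed-MADM. At P0 Tal1 was 7.75 to 21.1 CPM in 9 green and 0.529 and 0.178 CPM in 2 red libraries, a log2 difference of 4.95 (SE 0.67, edgeR adjusted p = 0.000271, higher in 9 of 9). It was the only member called of 7 tested, where 0.113% of genes were called. Without red replicate 2 the adjusted p was 0.0616. The 2 yellow Eed-MADM libraries of P0, labelled Eed+/- by their colour, held no read of Tal1. Their Eed levels were 18.99 and 12.55 CPM, within the 11.25 to 19.47 CPM of the 9 green libraries. The 2 red libraries held 29.82 and 25.17 CPM of Eed. The Eed level thus did not set the yellow libraries apart from Eed-/- cells. Gata2 (fold 3.07, 95% interval of the log2 difference -0.91 to 4.11) and Gata6 (fold 4.83, -0.72 to 5.15) were not called, each with an adjusted p of 1. At E16.5, 5 green libraries were compared with 1 red library and none of 6 members was called (0.0599% of genes called).

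Green cells of Eed-MADM and cKO-Eed-MADM have the same Eed genotype, and their levels are set side by side as a description. At P0 green Tal1 averaged 11.7 CPM in Eed-MADM and 88.1 CPM in cKO-Eed-MADM, and Gata4 0.259 and 30.4 CPM. Hand2 averaged 0.0600 CPM, from 3 reads, in Eed-MADM and 13.6 CPM in cKO-Eed-MADM, a fold of summed reads of 216 with a counting interval of 73.2 to 1050.

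At E13.5 the members were lower and fewer passed the filter. Tal1 was 17.3, 14.1, 9.31 and 17.5 CPM in green cKO-Eed-MADM and 0.624 and 0 CPM in the 2 control-MADM libraries, without overlap. Gata4 was 2.88, 3.95, 0 and 4.61 CPM against no control read, and Gata6 3.54, 7.70, 5.03 and 0.461 CPM against 0 and 0.777 CPM. None of 3 members tested was called, where 0.0372% of 13448 genes were called and 10.3% had an unadjusted p under 0.05. DESeq2 called Tal1. Against Eed-MADM none of 3 was called (0.0223% of genes), and none of 3 was called for Eed-MADM against control-MADM (0% of genes, 6.13% at an unadjusted p under 0.05, and no member but 40 genes by DESeq2).

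Red and yellow cells at E13.5 did not show the same order. Tal1 was 16.6 and 11.8 CPM in red and 3.66 and 23.7 CPM in yellow cKO-Eed-MADM, while control-MADM held 110 CPM in its red library and 2.11 CPM in its yellow library. The log2 difference was -1.25 (95% interval -3.51 to 1.01, edgeR adjusted p = 0.671), and none of 5 members was called where 2.53% of genes were. The red control library held 120200 CPM over 15 red blood cell genes, and the 4 cKO-Eed-MADM libraries 3.165 to 1394 CPM. In Eed-MADM at E13.5 Tal1 was 1.77 and 0 CPM in green and 14.0 and 16.2 CPM in red cells, with red blood cell sums of 56.6 and 563 CPM in green and 17650 and 61140 CPM in red. None of 4 members was called in that contrast (0.128% of genes called, edgeR adjusted p of Tal1 0.142). DESeq2 called Tal1 as lower in green, and its share over all genes is not given. The part of blood cells in these values was not tested.

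At E12.5 all groups held most members in some libraries and lacked them in others. Green Tal1 ranged from 0 to 33.0 CPM in control-MADM, from 0 to 23.2 CPM in Eed-MADM and from 9.25 to 46.9 CPM in cKO-Eed-MADM. Gata3 ranged from 0 to 87.8, from 0 to 58.3 and from 0 to 18.0 CPM in the same order, and Gata2 from 0 to 31.9, 36.25 and 22.7 CPM. None of the 7 members tested was called in any green contrast, and 0% of 18100 genes were called in each, with 7.08%, 7.27% and 3.78% of genes at an unadjusted p under 0.05 for cKO-Eed-MADM against control-MADM, cKO-Eed-MADM against Eed-MADM and Eed-MADM against control-MADM. DESeq2 called no member in them, and 6, 1 and 0 genes in all. None of 6 was called in red and yellow cells (1 against 4 libraries, 0.0455% of genes called), and none of 7 for Eed-MADM green against red (8 against 1, 0.0167%). Cells of this age alone were sorted into lysis buffer, so age and collection cannot be told apart.

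Red blood cell gene sums at E12.5 ran from 4.66 to 124300 CPM among libraries. The 3 libraries of highest sum, all cKO-Eed-MADM, held 36.7, 46.9 and 15.6 CPM of Tal1. Of the 7 libraries with sums under 50 CPM, 6 held no read of Tal1 and the other held 2.13 CPM. None of the 7 was a cKO-Eed-MADM library. Green cKO-Eed-MADM replicate 4 had a sum of 194 CPM and held Tal1 too, as did all 5 cKO-Eed-MADM libraries. Meningeal and pericyte gene sums reached 2670 CPM and the V2b and midbrain GABA neuron list 981 CPM, the latter in the yellow Eed-MADM library that held 40.4 CPM of Tal1 at a red blood cell sum of 1651 CPM, the most Gata3 (156 CPM), Tal2 (35.0 CPM) and Gata2's highest yellow Eed-MADM value (8.55 CPM).

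Green libraries of the later ages had red blood cell sums of at most 620 CPM, while red libraries of E13.5 reached 120200 CPM. The part of blood cells in the Tal1 levels of these ages was not tested. In green cKO-Eed-MADM red blood cell sums were 12.8 to 461 CPM at E16.5 and 4.84 to 58.6 CPM at P0, against 21.3 to 50.5 CPM and 2.97 to 228 CPM in control-MADM. At E13.5 they were 8.86 to 56.4 CPM in the green cKO-Eed-MADM libraries, which held 9.31 to 17.5 CPM of Tal1. Hba-x, Slc4a1, Kel, Ermap, Epb42 and Rhag were among the genes of this list with no read in green cKO-Eed-MADM at E16.5. The globin gene Hba-a2 was the 1 gene of 5 tested that was called higher there, where 6.16% of all genes were called higher. Its level was 12.9 against 0.335 CPM, and the median log2 difference of the 5 was 2.63. Gata1, the erythroid GATA factor, had no read in green control-MADM or cKO-Eed-MADM at E16.5 or P0.

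**Figure D4:**
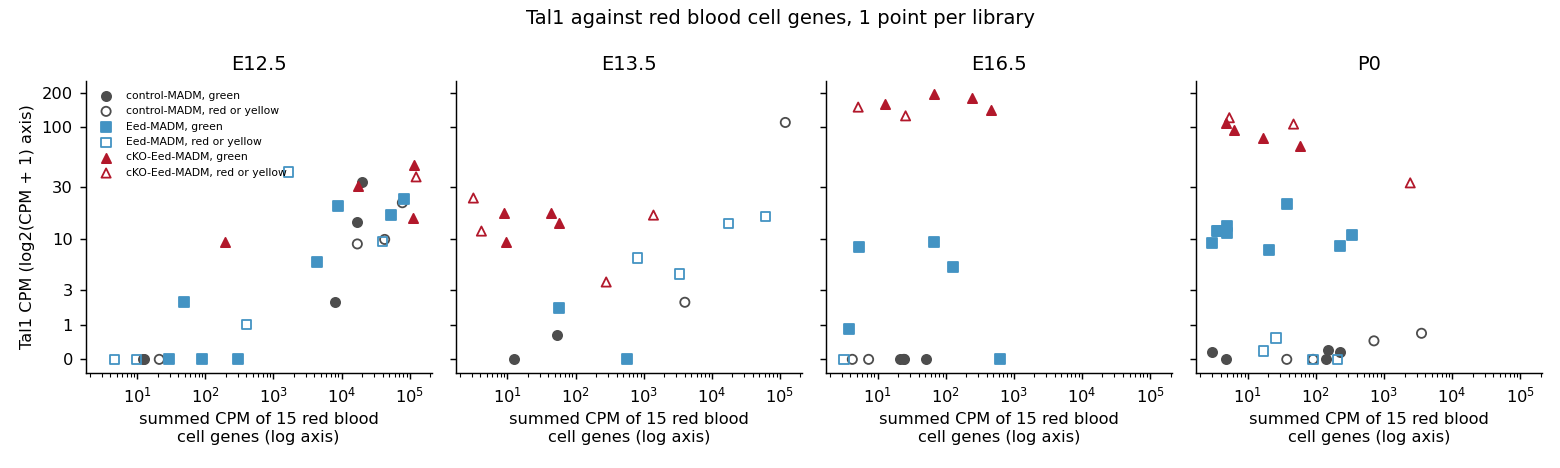
Tal1 CPM (axis of log2(CPM + 1)) against the summed CPM of 15 red blood cell genes (log axis) in each of the 92 libraries, by age. At E12.5 the 7 libraries with sums under 50 CPM, none of them cKO-Eed-MADM, hold at most 2.13 CPM of Tal1. At E16.5 the 6 cKO-Eed-MADM libraries hold 126 to 194 CPM of Tal1 at red blood cell sums of 5.19 to 461 CPM.

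Markers of other cells did move with the P0 comparison. Microglia gene sums were 245 to 565 CPM in green cKO-Eed-MADM and 18.0 to 91.9 CPM in control-MADM. Of 10 tested genes 9 were called higher, in a contrast that called 14.2% of all genes higher. Among the 9 was Csf1r, the receptor that microglia need to survive (56.2 against 2.89 CPM). Meningeal and pericyte sums were 147 to 348 CPM against 27.5 to 69.8 CPM, with 7 of 9 called higher, among them Foxc1 and the collagen-binding proteoglycan gene Dcn (36.0 against 1.40 CPM). Endothelial sums were 30.1 to 56.6 CPM against 13.2 to 26.4 CPM with none of 3 called, and the endothelial cadherin gene Cdh5 was 0.592 against 0.330 CPM. At E16.5 microglia sums were 26.9 to 82.1 against 13.8 to 23.8 CPM and meningeal sums 30.7 to 68.9 against 11.7 to 32.7 CPM. Csf1r (7.83 against 0 CPM) and Cx3cr1 of the microglia, Dcn of the meningeal and Sox18 of the endothelial list were called higher. That contrast called 6.16% of all genes higher. In red cKO-Eed-MADM at E16.5 none of 10 microglia genes was called, with sums of 7.22 to 227 against 8.52 to 167 CPM. Sox18 (7.19 against 0 CPM) and the meningeal gene Foxd1 (5.61 against 0 CPM) were called higher, where 5.69% of all genes were. In green Eed-MADM at P0 none of 10 microglia genes was called, with sums of 14.7 to 224 CPM. The part of these cells in the member levels, Lmo2 included, was not tested. The dorsal cortex list went the other way, with 8 of 12 genes called lower at P0, where 1417 of 14161 genes were called lower. Among the 8 were the neuronal factors Neurod2 (106 against 682 CPM) and Neurod6 (109.5 against 576 CPM).

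Of 22 listed partners of GATA and TAL factors, 15 were tested at P0 and 3 were called higher and 3 lower, where 24.2% of all genes were called, with a median log2 difference of -0.23 against -0.01 over all genes. Zfpm2, which encodes the GATA cofactor FOG2, was called higher at both ages, at 62.1 ± 15.1 against 19.2 ± 6.63 CPM at E16.5 (log2 difference 1.71, SE 0.34) and 34.8 ± 7.54 against 10.8 ± 6.05 CPM at P0. It was also called higher in red cells at E16.5 (70.5 against 18.7 CPM, edgeR adjusted p = 0.000401). Ldb1, which bridges LIM-only factors, was 86.7 ± 18.8 against 102 ± 12.2 CPM at P0. Lmo4 and the E protein gene Tcf4 were lower at P0, with log2 differences of -0.94 and -0.91. The others called at P0 were Fli1 and Zfpm1 (higher) and Tcf3 (lower).

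Lists of the heart, inhibitory neuron and sympathetic neuron programmes in which these factors act gave the following counts. Of 16 cardiac transcription factors 11 were tested at P0 in green cKO-Eed-MADM against control-MADM, and 7 were called higher and 1, Mef2c, lower, where 14.2% of all genes were called higher. Nkx2-5, an early cardiac homeobox gene, was 25.97 against 0 CPM and Tbx3, of the conduction system, 26.6 against 0 CPM, at least 248-fold and 253-fold higher. In green Eed-MADM at P0 Nkx2-5, Tbx3 and Isl1 were the 3 called. Nkx2-5 and Tbx3 were 4.69 and 3.12 CPM against no control read (edgeR adjusted p = 3.45e-05 and 3.17e-05). That fit also held the cKO-Eed-MADM libraries, where both were higher. In red cKO-Eed-MADM at E16.5, 5 of 10 tested were called higher and 2, Mef2c and Smarcd3, lower, where 5.69% of all genes were called higher. Nkx2-5 (8.24 CPM), Tbx3 (36.9 CPM) and Tbx5 (15.3 CPM) were among the higher, against no control read. They passed the filter on low counts through the red cKO-Eed-MADM libraries, so nothing is read from these calls or their count. Of the 16 cardiac muscle genes only 4 passed the filter at P0 and 2 were called higher, Myh6 (5.83 against 0.708 CPM) and Ryr2 (10.3 against 1.32 CPM), while the list summed to 33.9 to 42.3 CPM against 5.29 to 22.2 CPM and Nppb, Actc1 and Myl3 had no read.

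In the V2b and midbrain GABA neuron list, cell types that use Gata2, Gata3, Tal1 and Tal2, 6 of 10 tested genes were called higher at E16.5 and none lower, where 6.16% of all genes were called higher. Pax2 was 41.2 CPM against no control read and the LIM homeobox gene Lhx5 134 against 2.34 CPM. Slc32a1, the vesicular transporter for inhibitory transmitter, was 15.4 CPM against no read. In red cells at E16.5, 7 of 9 were called higher, among them Pax2, Lhx1 and Lhx5. At P0, where 14.2% of all genes were called higher, 4 of 11 were higher and 2 lower, the latter being Helt and Gad2 (33.5 against 75.6 CPM). Of the sympathetic neuron list, whose cells use Gata2, Gata3 and Hand2, 1 of 6 was higher at P0 and 2 lower. Isl1 was higher (36.4 against 0.364 CPM), Insm1 and Chga were lower, and the defining gene Th was 1.23 CPM against 1.10 CPM. The lists were drawn up with results of these data known. Listed genes without a control read passed the filter through the other libraries of a fit, so nothing is read from the counts of calls in these lists. The medians over the tested members of the cardiac factor, V2b and sympathetic lists at P0 were 2.47, 0.72 and 0.52 on the log2 scale.

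Likeness of pattern was measured as Pearson's r of log2(CPM + 1) means over the 12 green groups, among genes with a mean of at least 1 CPM in any group. The 12 points share their libraries' depth, and r here mostly sets groups at 0 apart from groups that are not. Among the 3 nearest to Tal1 were En1 and Rasl10a (r = 0.95 and 0.94). Among the 3 nearest to Gata2 were Tbx15 and Twist1 (0.96 and 0.95). Nearest to Gata3 were Igf2, Pax3 and Six2 (0.97, 0.95 and 0.95), and nearest to Gata4 the homeobox genes Hoxb4, Hoxc11 and Hoxb9 (0.98 each). Igf2 lies on chromosome 7. To Gata6 they were Trp53cor1, Tmem117 and Tacr1 (0.96, 0.94 and 0.94), to Lmo2 Nova1, Lgr4 and Thsd7a (0.96, 0.95 and 0.94), and to Hand2 Gm28876, Gm11536 and 5730596B20Rik (0.99 each). For Tal2 they were Erg, Ccdc150 and Fam111a, and for Hand1 Trim31, Hormad2 and Morc1.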

How the data were processed

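RNA-seq libraries of sorted cortical cells were made by the authors from pools of cortices. The authors aligned reads uniquely to mm10 with STAR, and the deposited files hold raw counts per gene, unstranded and for each strand. The unstranded counts are used. Reads in no gene or in several genes (13.4 to 40.4% of a library) stayed out of library sizes. Of 53379 gene IDs, 53274 matched the GENCODE M21 annotation. Libraries with fewer than 1000000 uniquely aligned reads, or with these under 60% of all reads, were left out (24 of 116). No 2 replicates differed by less than the sampling noise (146 pairs, lowest chi-square per degree of freedom 5.24).

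Each age was fitted with edgeR 4.0.16 (TMM, quasi-likelihood test, Benjamini-Hochberg adjustment over all genes tested, threshold 0.05) in R 4.3.3. Green libraries were in 1 fit, red and yellow libraries in another, and the mosaic and age contrasts in fits of their own. The red and yellow fits had colour as a term at all ages but E12.5, where control-MADM and cKO-Eed-MADM kept yellow libraries only. Genes entered with a mean count over 1 at E12.5 and over 10 later. The procedure was tested on simulated data. Folds against a group without reads used a floor of 3 reads over that group. Folds against 1 to 3 reads are ratios of summed reads with exact 95% intervals. DESeq2 1.42.0, other scalings, no filter, single strands, all libraries, a replicate block and leaving out each library were tried as alternatives. Same-numbered libraries did not deviate together in every pair of any fit, so the numbers were not used as pairs.

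The members and the gene lists were chosen with earlier results of these data known. Named genes are the 10 members, the 3 genes most alike each, up to 3 called and non-overlapping genes per list by size of change, Eed and genes that overlap a member. Marker genes named as defining, and genes named to complete a count of 5 or fewer, were chosen after their values were seen. Some genes that this rule selects are not reported here.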

Additional observations from a re-analysis of the deposited data

Results flagged for a closer look

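Within groups of 4 to 10 libraries, the gap between the highest library and the next was set against Dixon's 95% critical value for each member. Of 58 member groups 15 passed. Chance passes that value in about 1 of 20 groups of normally distributed values, and low counts with many libraries at 0 are not such values. Where only 1 library of a group had a read, as for Hand1 in green cKO-Eed-MADM at E12.5, it always passed. The 15 are therefore not set against the 1 in 20. Most were at E12.5. The yellow Eed-MADM replicate 4 stood apart in 5 members, with 8.55 CPM of Gata2, 156 CPM of Gata3, 5.44 CPM of Gata6, 40.4 CPM of Tal1 and 35.0 CPM of Tal2. Yellow control-MADM replicate 3 held 80.8 CPM of Gata3 and 7.18 CPM of Tal2. In green control-MADM replicate 3 held 9.63 CPM of Gata6, replicate 4 held 12.3 CPM of Tal2 and replicate 5 held 77.4 CPM of Lmo2. In green cKO-Eed-MADM replicate 3 held 4.82 CPM of Gata6 and replicate 5 held 13.8 CPM of Hand1.

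At P0 the highest libraries that stood apart were green cKO-Eed-MADM replicate 3 for Gata2 (36.5 CPM), green Eed-MADM replicate 5 for Gata3 (4.48 CPM) and green Eed-MADM replicate 3 for Tal1 (21.1 CPM).

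The difference between cKO-Eed-MADM and control-MADM had opposite directions by colour for 2 members, and these differences were not tested against each other. Gata3 at E12.5 was -20.7 CPM in green and 59.3 CPM in red and yellow cells, the latter from 1 cKO-Eed-MADM library. Tal1 at E13.5 was 14.3 CPM in green and -42.2 CPM in red and yellow cells, where the red control-MADM library held 110 CPM of Tal1 and 120200 CPM of red blood cell genes.

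Libraries outside the depth limits enter no comparison. Mutant libraries among them are listed where a member had at least 3 reads and a level above every control-MADM library of that age that was also outside the limits, in RPM (reads per 1000000 on genes). Green cKO-Eed-MADM replicate 1 at E12.5 held 4.52 RPM of Gata5 against 0, and 30.5 RPM of Lmo2 against at most 11.8 RPM. Yellow cKO-Eed-MADM replicate 1 at P0 held 2.54 RPM of Tal1 against 0, from 12 reads among 4732515 on genes. That level was far below the 121 CPM of the yellow cKO-Eed-MADM library used at P0, and Gata3 was at 0.423 RPM. The others were Eed-MADM libraries with 15225 to 59471 reads on genes, in which the values rest on 3 to 8 reads. Green replicate 3 at E13.5 held 134 RPM of Tal1 against at most 0.634 RPM, and 84.1 RPM of Gata4 and 101 RPM of Lmo2 against 0. Green replicate 8 at E13.5 held 135 RPM of Lmo2, yellow replicate 3 at E12.5 held 197 RPM of Hand2 and yellow replicate 1 at E16.5 held 283 RPM of Gata6, each against 0.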

How the results depend on the processing

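No called member reversed direction under any alternative, and members not called were not followed. The share of all genes called under an alternative is not given with the counts of this section. They show how the counts depend on the processing and are not read as results about the members. Of 168 counts of members called under an alternative other than leaving out 1 library, 147 stayed within 1.5 times and 21 moved. With DESeq2, 1 member, Tal1, was called in green cKO-Eed-MADM against control-MADM and against Eed-MADM at E13.5, in Eed-MADM green against red at E13.5 (as lower) and in green Eed-MADM against control-MADM at E16.5. Without a filter on low counts 1 member was called in each of these but the second, 1 in red and yellow cells at E13.5 (Gata3, lower), 1 in Eed-MADM green against red at E16.5, 3 in red and yellow cells at P0 and 1 between the ages. With all libraries, 1 was called in green cKO-Eed-MADM and 1 in green Eed-MADM against control-MADM at E13.5, and 0 in red and yellow cells at P0. With counts of the first strand 3 were called in red cells at E16.5. A fit of only the groups compared called 1 in green Eed-MADM at P0, where 2 were tested, 0 in red and yellow cells at P0, and 2 between the ages. The causes were not tested beyond the numbers tested given here.

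With a replicate block 1 member was called in green Eed-MADM at E16.5 and 0 in red and yellow cells at P0. The count in red and yellow cells at E12.5 moved too, in a fit with 1 cKO-Eed-MADM library. No other count of members moved by over 1.5 times. The pairing of numbers is not given by the labels, and correlations of same-numbered libraries ran from -0.165 to 0.377.

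Leaving out 1 library gave 0 to 1 members in red and yellow cells at E13.5 (1 without cKO-Eed-MADM red replicate 1) and at P0, in Eed-MADM green against red at E13.5 (1 without green replicate 2) and at P0, and in green Eed-MADM at E16.5, and 3 to 5 in red cells at E16.5. In green cKO-Eed-MADM it gave 4 to 6 at E16.5 and 6 to 7 at P0, against either group. The Gata3 call in green Eed-MADM at P0 was lost on first-strand counts. By Spearman's rho the 3 genes most alike changed for 8 of 9 members.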
